A study of Mus musculus with 4 samples.

Results

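Non-cycling plasma cells were taken as the cells with a high level of *Jchain*, the gene of the joining chain of secreted IgM and IgA, and no transcript of 2 genes of dividing cells, Mki67 and Top2a. All barcodes of both mRNA libraries with more than 100 and fewer than 5500 detected genes and under 10% mitochondrial transcripts were kept, with or without a hashtag, and levels were given as CP10K, the count of unique molecular identifiers (UMIs) of a gene per 10000 UMIs of the cell. A cell was a member if *Jchain* reached 100 CP10K and the Mki67 and Top2a UMIs summed to 0. This gave 1787 members among 28550 kept cells of 29473 barcodes, of which 1287 were among the 23467 kept cells of the CD45.2+ library (5.48%) and 500 among the 5083 kept cells of the CD45.1+ library (9.84%). Another 2407 CD45.2+ and 816 CD45.1+ cells had as much *Jchain* but carried Mki67 or Top2a UMIs and are called cycling Jchain-high cells here, and the remaining 19773 and 3767 are called other B-lineage cells. The members and the list of genes that mark them were therefore selected on values of these same cells, and their difference from the other cells is given as a description without a test.

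The study examined splenic B cells with and without the cytoskeletal regulator DOCK8 in a germinal center reaction. MD4 B cells, which carry a transgenic antigen receptor for hen egg lysozyme (HEL) built on the gene segments *Ighv3-8* and *Igkv5-43*, were transferred into CD45.1+ recipient mice of 8 to 12 weeks of age, which were immunized with sheep red blood cells coupled to HEL and analysed on day 8. Each of 6 mice received CD45.2+ MD4 B cells that carried a BCL2 transgene (BCL2.Tg) together with CD45.1+ MD4 B cells that were *Dock8* wt/wt and lacked that transgene, and the CD45.2+ cells were *Dock8* wt/wt in 3 mice and *Dock8* cpm/cpm, a chemically induced null allele, in the other 3. HEL+ CD95+ cells of each fraction were sorted, and all 6 mice were pooled into 1 library per fraction after hashtag labeling. The BCL2 transgene, the congenic marker, the sort and the droplet library thus differed together between the CD45.2+ and the CD45.1+ fraction and cannot be told apart. The HEL+ CD95+ gate was set for germinal center B cells, so plasma cells that had lost surface receptor or CD95 were not collected.

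Plasma cells are the antibody-secreting end stage of B cell differentiation. The transcription factors Blimp-1 (*Prdm1*), IRF4 and XBP1 replace the B cell program by one for secretion, in which the endoplasmic reticulum expands and its chaperones, translocon and glycosylation enzymes fold and export immunoglobulin. In the spleen they arise both outside follicles and from germinal centers, first as dividing plasmablasts and then as cells that have left the cell cycle, and their survival depends on signals such as those through BCMA (*Tnfrsf17*) and on proteins of the BCL-2 family.

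The members had a median of 8144 UMIs and 1763 genes per cell in the CD45.2+ library and 9394.5 UMIs and 1700 genes in the CD45.1+ library, and 11164277 and 4842728 UMIs in all. The cycling Jchain-high cells were deeper, at 10985 and 12100.5 UMIs, so that the absence of Mki67 and Top2a UMIs depends in part on depth. By hashtag, 516 CD45.2+ and 264 CD45.1+ members were assigned to 1 mouse, 442 and 214 carried more than 1 hashtag and 329 and 22 carried none. The members with more than 1 hashtag had more UMIs than the singly labeled ones, with medians of 10659.5 against 7222 and 10052.5 against 8920. No doublet was removed for the descriptions over all members, whereas the values per mouse rest on singly labeled cells. The 2 libraries shared 38 cell barcodes, which took in 1 CD45.2+ and 5 CD45.1+ members.

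The label was compared with its marker genes, of which *Jchain* is present in every member by the rule. At least 3 of *Jchain*, *Xbp1*, *Tnfrsf17*, *Prg2*, *Slpi* and *Derl3* were detected in 98.8% of CD45.2+ and 99.8% of CD45.1+ members, against 36.0% and 11.3% of other B-lineage cells. All 6 were detected in 10.1% and 10.4% of members. In the deeper cycling Jchain-high cells at least 3 were detected in 99.3% and 99.1% and all 6 in 13.0% and 14.6%. Detection of these markers thus does not set the members apart from that class. *Jchain* itself, which was used for the choice, had a mean of 384.7 and 376.3 CP10K in members and of 11.5 and 6.48 CP10K in other B-lineage cells. The highest CD45.2+ cell outside the cutoff had 99.9 CP10K and the lowest member 100.6 CP10K. Just outside, at 80 to 100 CP10K, 79 CD45.2+ cells without Mki67 or Top2a UMIs had a median of 1719 UMIs and a mean *Xbp1* level of 10.0 CP10K, and just inside, at 100 to 120 CP10K, 45 members had 6778 UMIs and 13.8 CP10K. In the CD45.1+ library 11 cells lay just outside and 6 just inside, with *Xbp1* at 19.95 and 23.7 CP10K.

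Transcripts from other cells were gauged in T cells, defined as cells with at least 3 UMIs of 6 T cell genes and *Jchain* below the cutoff. There were 234 such cells in the CD45.2+ and 52 in the CD45.1+ library, with a median of 4240.5 and 2722.5 UMIs. *Jchain* stood at 13.9 and 2.27 CP10K in them, far under the cutoff of 100. The 19 genes of B cell identity summed to 58.8 CP10K in CD45.2+ members and 57.4 CP10K in CD45.2+ T cells, whereas they summed to 23.5 CP10K in CD45.1+ members and 13.5 CP10K in CD45.1+ T cells. The summed B cell genes of CD45.2+ members were thus about as abundant as in cells that should lack them, and the part of free RNA in the members' levels was not tested. No doublet was removed from the T cells. The list summed to 46.4 CP10K in the 69 CD45.2+ T cells with 1 hashtag, 87.7 CP10K in the 82 with more than 1 and 36.7 CP10K in the 83 with none, a division added after seeing the data, and doublets of T and B cells were not separated from free RNA. The secretory genes were lower in T cells, since the 19 chaperones of the endoplasmic reticulum summed to 212 and 297 CP10K in members and to 31.1 and 16.6 CP10K in T cells. Among the members, 6 CD45.2+ and 0 CD45.1+ cells had 3 or more T cell UMIs. The 10 T cell markers summed to 0.299 and 0.030 CP10K in members and the 7 erythroid and platelet markers to 0.060 and 0.011 CP10K. The 12 myeloid markers summed to 6.85 and 5.41 CP10K, but the sum was carried by *Cst3*, a secreted protease inhibitor, while *Csf1r* and *Ccr2* were at 0 in members of both libraries. The 6 markers of plasmacytoid dendritic and NK cells summed to 1.27 and 2.27 CP10K, carried by *Bst2*, an interferon-induced membrane protein.

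The labels were checked in 2 further ways. The transgene is the human gene, whereas the counts are those of mouse *Bcl2*, and whether transcripts of the transgene were counted there was not tested. The CD45.1+ cells were not given the transgene, but 90 of 500 CD45.1+ members (18%) held 3 or more *Bcl2* UMIs, against 26 of 3767 other CD45.1+ cells (0.690%) and 827 of 1287 CD45.2+ members (64.3%). These cells made up 14 of 29, 31 of 61 and 16 of 115 singly labeled CD45.1+ members of the wt/wt-labelled mice and 0 of 15, 3 of 28 and 1 of 16 of the cpm/cpm-labelled mice. The gene comparisons that rest on CD45.1+ members and the shares of members are given with and without cells of such *Bcl2* counts. Among sex-linked genes, CD45.2+ members labelled *Dock8* wt/wt held *Xist* at 7.97, 8.19 and 8.68 CP10K and *Ddx3y* at 0.010, 0.028 and 0.018 CP10K, whereas the other CD45.2+ cells labelled *Dock8* cpm/cpm held *Ddx3y* at 0.634, 0.693 and 0.551 CP10K. The kept singly labeled CD45.2+ cells numbered 2007, 2607 and 1672 in the wt/wt-labelled mice and 57, 44 and 101 in the cpm/cpm-labelled mice. A note in the study's supplement gives the donor sexes the other way round, so the genotype is written here as the hashtag label, in wt/wt-labelled and cpm/cpm-labelled mice. *Dock8* itself stood at 1.11, 1.17 and 1.02 CP10K in the other CD45.2+ cells labelled wt/wt and 1.05, 1.09 and 0.996 CP10K in those labelled cpm/cpm. It does not tell the labels apart, and whether the mutation changes its RNA level was not tested.

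**Figure D1:**
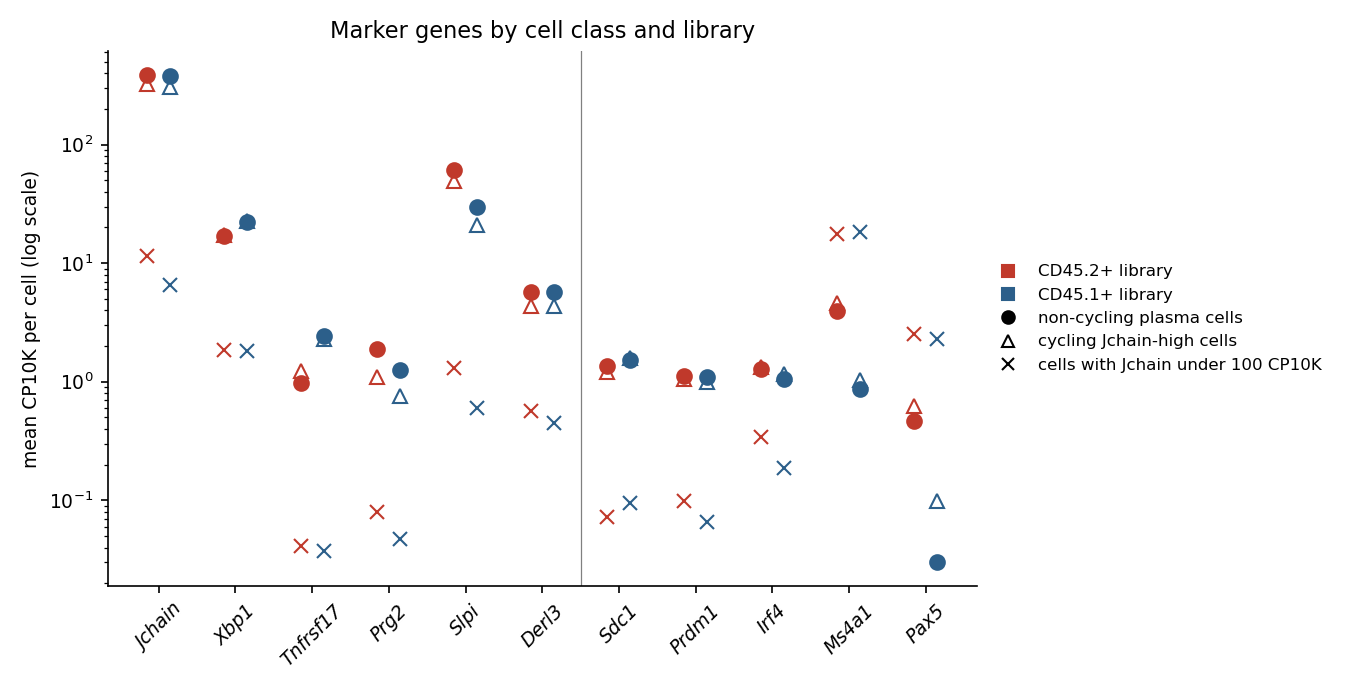
Mean level (CP10K, log axis) of the 6 marker genes (left of the line) and 5 other genes in members, cycling Jchain-high cells and other B-lineage cells of the CD45.2+ and CD45.1+ libraries. Members and cycling Jchain-high cells lie close together for most genes, with *Xbp1* at 17 and 17.2 CP10K in the CD45.2+ library. Both lie above the other cells for the genes from *Jchain* to *Irf4* and under them for the B cell genes *Ms4a1* and *Pax5*.

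Promoters of the secretory genes were read for 1 motif of the unfolded protein response, the endoplasmic reticulum stress element with the letters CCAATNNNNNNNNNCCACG, searched on both strands of RefSeq windows (build GRCm38.p6) that run from 250 bases before to 50 bases after each gene's start. The element was found in 37 of 27025 genes (0.137%), in 6 of the 16 chaperone genes with a window and in 2 of the 14 unfolded protein response genes with a window, and in 0 of 1 window of *Xbp1*. The 8 genes differed in level. The smaller of the log2 differences between members and other B-lineage cells in the 2 libraries was 3.02 for *Creld2*, 2.96 for *Hsp90b1*, 2.53 for *Dnajc3*, 2.34 for *Hspa5*, 1.92 for *Pdia6* and 1.63 for *Calr*, but 0.47 for *Syvn1* and 0.13 for *Canx*. The stretches are shown for the 4 genes with the largest difference, with the CCAAT and CCACG parts, or their reverse complements ATTGG and CGTGG, in capitals and 20 bases on either side, each 5′ to 3′ on the strand of the gene. They are *Creld2* (chr15:88819500-88819558, plus strand), *Hsp90b1* (chr10:86705513-86705676, minus strand, with 2 elements), *Dnajc3* (chr14:118937807-118937865, plus strand) and *Hspa5* (chr2:34772005-34772063, plus strand), and all 4 stretches lie upstream of the start.
Creld2: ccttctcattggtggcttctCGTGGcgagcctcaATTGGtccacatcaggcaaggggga
Hsp90b1: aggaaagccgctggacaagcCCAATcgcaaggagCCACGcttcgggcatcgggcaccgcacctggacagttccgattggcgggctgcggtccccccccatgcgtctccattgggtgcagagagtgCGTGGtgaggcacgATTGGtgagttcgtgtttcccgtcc
Dnajc3: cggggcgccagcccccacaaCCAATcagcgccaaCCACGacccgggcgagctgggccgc
Hspa5: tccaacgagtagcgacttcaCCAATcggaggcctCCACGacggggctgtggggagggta
A match is only a description of these letters, and binding was not measured.

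Chaperones were high in the members of both libraries. *Hsp90b1*, the chaperone GRP94, averaged 37.0 CP10K in CD45.2+ and 63.1 CP10K in CD45.1+ members, against 4.68 and 5.70 CP10K in other B-lineage cells. *Hspa5*, the chaperone BiP, averaged 14.4 and 18.5 CP10K against 2.77 and 3.09 CP10K. The members' levels of both genes were thus several-fold above those of the other cells, and were close to those of the cycling Jchain-high cells, which held *Hsp90b1* at 37.5 and 71.6 CP10K. *Dnajc3*, a co-chaperone of BiP, averaged 4.59 and 5.77 CP10K against 0.710 and 0.756 CP10K, and *Creld2*, a disulfide isomerase-like protein, 4.94 and 6.55 CP10K against 0.520 and 0.493 CP10K. *Mzb1*, a B-lineage co-chaperone of immunoglobulin assembly, was the most abundant of the chaperones named here, at 61.9 and 88.7 CP10K.

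Counted over lists, a gene was taken as higher or lower where its mean differed at least 2-fold from the other B-lineage cells in both libraries, a rule of size with no test. Of 5688 genes with enough UMIs, 220 were higher (3.87%) and 1242 lower (21.8%), with a median log2 difference of -0.65 in the CD45.2+ and -0.79 in the CD45.1+ library. Immunoglobulin transcripts took a median of 38.7% of UMIs in CD45.2+ and 44.1% in CD45.1+ members, against 3.09% and 2.57% in other B-lineage cells. With those transcripts left out of the total the counts became 471 higher (8.28%) and 440 lower (7.74%) and the medians -0.17 and -0.23, so a lower level of a gene is read against these medians. Of the 19 chaperones 17 were higher and 0 lower, with a median log2 difference of 2.17 and 2.54. The other steps of secretion followed with 12 of 18 translocon and signal peptidase genes and 10 of 17 glycosylation and quality control genes higher and 0 lower in either list, with medians of 1.53 and 1.98 and of 1.20 and 1.81. *Ssr4*, a translocon-associated protein, averaged 26.8 and 28.9 CP10K against 2.89 and 3.07 CP10K. *Edem1*, which marks misfolded glycoproteins for degradation, averaged 9.15 and 13.8 CP10K against 1.30 and 1.19 CP10K.

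**Figure D2:**
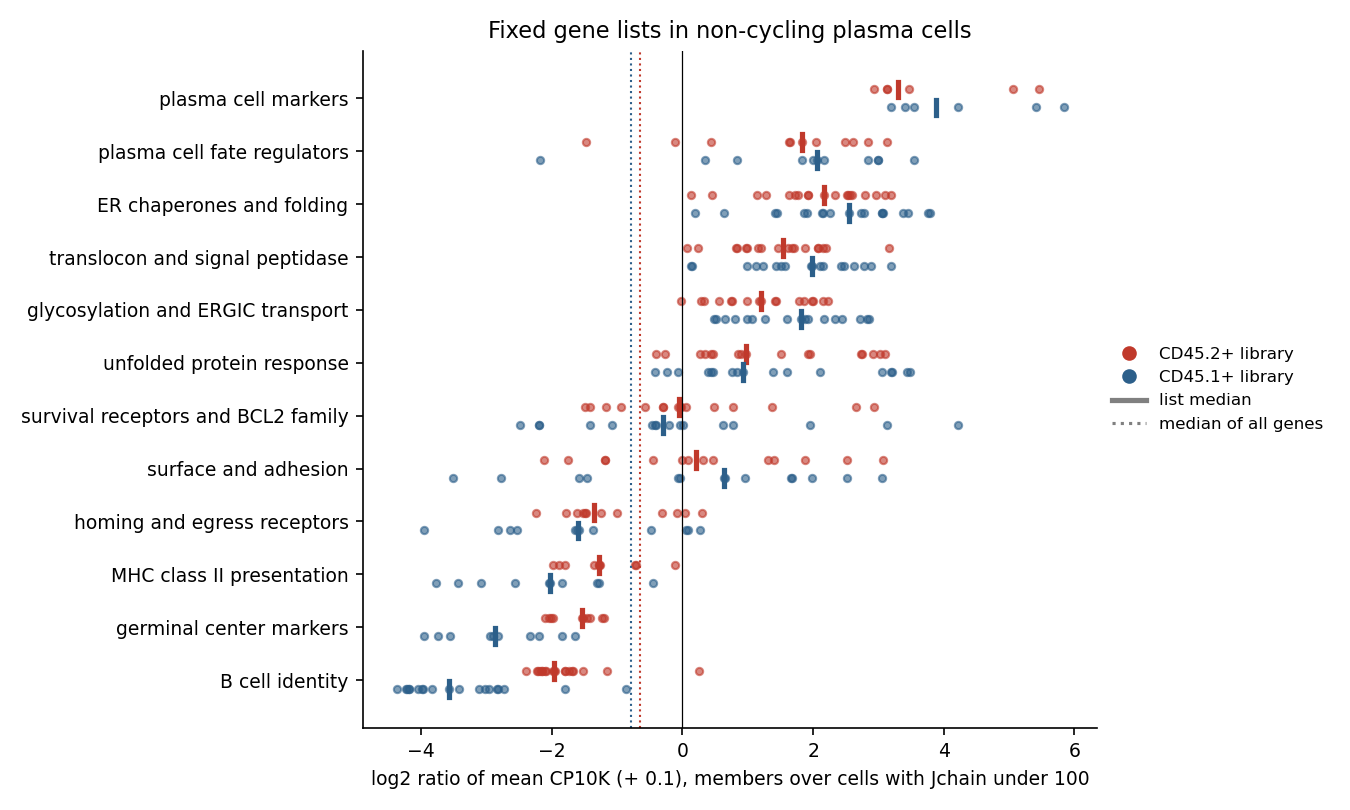
Difference of members from other B-lineage cells (log2 of the ratio of mean CP10K with a pseudocount of 0.1) for the genes of each list in the CD45.2+ and CD45.1+ libraries. Each dot is 1 gene, the thick tick is the median of the list and the dotted line is the median of all genes (-0.65 and -0.79). The secretory lists lie to the right of the dotted line and the B cell identity list to its left, with medians of -1.96 and -3.58.

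The unfolded protein response was represented unequally. Of its 17 genes 8 were higher and 0 lower, with medians of 0.97 and 0.93. *Xbp1*, the transcription factor of its IRE1 arm, averaged 17 and 22.3 CP10K in members against 1.86 and 1.83 CP10K. *Ern1*, which encodes the sensor IRE1 that splices *Xbp1* RNA, averaged 0.281 and 0.283 CP10K against 0.033 and 0.026 CP10K. *Sdf2l1*, a luminal factor of protein folding, averaged 8.01 and 7.81 CP10K against 0.844 and 0.765 CP10K, and *Manf*, a secreted stress protein, 14.1 and 18.8 CP10K against 2.01 and 2.16 CP10K. *Eif2ak3* and *Atf4* were within 2-fold of the other cells. *Eif2ak3*, which encodes PERK, averaged 0.332 and 0.319 CP10K in members against 0.472 and 0.396 CP10K, and *Atf4*, the transcription factor downstream of it, averaged 1.85 and 1.48 CP10K against 1.45 and 1.07 CP10K.

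Beside *Xbp1*, the regulators of the fate include Blimp-1 and IRF4, whose genes had low counts. *Prdm1* averaged 1.11 and 1.09 CP10K in members against 0.099 and 0.066 CP10K in other B-lineage cells, and *Irf4* averaged 1.29 and 1.05 CP10K against 0.341 and 0.188 CP10K. Of the 11 genes of this list 8 were higher and 1 lower. The cycling Jchain-high cells had nearly the same means, with *Prdm1* at 1.06 and 1.0 CP10K and *Irf4* at 1.32 and 1.16 CP10K. *Ell2*, an elongation factor that favors the secretory form of immunoglobulin RNA, averaged 1.88 and 2.12 CP10K against 0.378 and 0.432 CP10K. *Tent5c*, a poly(A) polymerase of secretory mRNAs, averaged 3.20 and 4.61 CP10K against 0.311 and 0.268 CP10K. *Zbtb20*, a zinc finger regulator linked to long-lived plasma cells, went the other way, at 0.316 and 0.173 CP10K in members and 1.06 and 1.14 CP10K in other cells.

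Among the remaining markers the 2 fractions were unlike. *Slpi*, a secreted inhibitor of leukocyte proteases, averaged 61.3 CP10K in CD45.2+ members, with a UMI in 81.2% of them, and 29.7 CP10K in CD45.1+ members, with a UMI in 65.4%. Its level in T cells was 3.08 and 0.822 CP10K, with a UMI in 41.5% and 19.2% of them at the lower depth given above. *Tnfrsf17* averaged 0.983 CP10K in CD45.2+ members (a UMI in 33.9%) and 2.44 CP10K in CD45.1+ members (59.4%), with 0.051 and 0 CP10K in T cells. *Prg2*, which encodes a basic protein of eosinophil granules, averaged 1.88 and 1.25 CP10K in members and 0.080 and 0.048 CP10K in other B-lineage cells. Of the 8 other genes of eosinophils and mast cells or basophils examined, *Epx*, *Ear1*, *Mcpt8*, *Cpa3* and *Siglecf* were at 0 in members of both libraries, and the list summed to 0.056 and 0.086 CP10K, led by *Prg3*, a homolog of *Prg2*. *Sdc1*, the surface proteoglycan CD138, had a UMI in 58.1% and 63.4% of members at a mean of 1.35 and 1.53 CP10K, and in 5.13% of CD45.2+ T cells.

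The immunoglobulin transcripts were almost entirely those of IgM with a kappa light chain. The paper describes the sequenced MD4 cells as IgMa+, so the choice of cells bears on this. *Ighm* averaged 813 and 617 CP10K in members and 77.0 and 67.3 CP10K in other B-lineage cells, and *Igkc* averaged 2412 and 3126 CP10K against 235 and 238 CP10K. *Ighm* was the leading heavy chain in 99.2% of CD45.2+ and 99.6% of CD45.1+ members and took 98.2% and 96.9% of heavy chain UMIs. It also led in 99.7% and 98.0% of other B-lineage cells, so it does not set the members apart. *Ighg1* led in 6 and 1 members, *Ighg2b* in 3 and 1 and *Ighd* in 1 and 0. *Igkv5-43*, the kappa segment of the transgenic receptor, was the leading kappa segment in 99.3% and 99.4% of members, and *Ighv3-8*, its heavy segment, was the leading heavy segment in 94.8% and 94.2%. Reads of near-identical segments could be split between genes by the counting, so single segments are uncertain.

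Genes of survival, surface and homing were also counted beside the shares over all genes, 3.87% higher and 21.8% lower. Of 16 survival genes 3 were higher and 3 lower (18.8% each), and with immunoglobulin transcripts left out of the total 4 were higher and 0 lower. *Bcl2l11*, which encodes the pro-apoptotic protein BIM, averaged 10.1 and 8.48 CP10K in members against 1.51 and 0.883 CP10K in other B-lineage cells. *Trp53inp1*, a stress-induced p53 target, averaged 6.92 and 6.61 CP10K against 0.998 and 0.751 CP10K, and *Mcl1*, an anti-apoptotic BCL-2 relative, was near level at 3.93 and 4.39 CP10K against 4.11 and 4.50 CP10K. The receptors of BAFF and APRIL split, since *Tnfrsf17* was higher whereas *Tnfrsf13c*, the BAFF receptor, was lower at 1.02 and 0.671 CP10K against 3.04 and 4.23 CP10K. Of the 14 surface genes 5 were higher (35.7%) and 4 lower (28.6%), and with immunoglobulin transcripts left out 5 were higher and 2 lower. Among those higher were *Cd28*, a costimulatory receptor, at 1.04 and 1.35 CP10K against 0.060 and 0.082 CP10K, and *Ly6c2*, the gene of Ly6C, at 0.875 and 1.17 CP10K against 0.069 and 0.120 CP10K. Of the 12 homing genes 8 were lower and 0 higher, with medians of -1.36 and -1.60, and with immunoglobulin transcripts left out 6 were lower. *Cxcr4*, the receptor for the bone marrow chemokine CXCL12, averaged 0.184 and 0.052 CP10K in members against 0.572 and 0.294 CP10K, and *S1pr1*, the egress receptor, averaged 0.485 and 0.187 CP10K against 1.53 and 0.775 CP10K. *Klf2*, the transcription factor that drives *S1pr1*, averaged 0.982 and 0.158 CP10K against 5.0 and 3.90 CP10K.

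Genes of B cell identity and of the germinal center were low. Of the 19 identity genes 18 were lower and 0 higher, all 10 germinal center genes were lower, and 7 of 10 genes of MHC class II presentation were lower. With immunoglobulin transcripts left out of the total these counts were 16, 7 and 3. *Ms4a1*, the gene of CD20, averaged 3.91 CP10K in CD45.2+ and 0.873 CP10K in CD45.1+ members against 17.7 and 18.2 CP10K in other B-lineage cells. *Pax5*, the transcription factor of B cell identity, averaged 0.463 and 0.030 CP10K against 2.53 and 2.27 CP10K. In T cells *Ms4a1* stood at 6.44 and 0.433 CP10K and *Pax5* at 0.823 and 0 CP10K, so that neither gene was higher in CD45.2+ members than in T cells of that library. *Cd79a*, a signaling chain of the antigen receptor, stood at 30.4 against 25.6 CP10K in the CD45.2+ library and was lower in the CD45.1+ members, at 13.1 against 23.9 CP10K. Of the 22 further cell cycle genes 21 were lower in both libraries, a direction that the choice by Mki67 and Top2a favors. They summed to 4.75 and 2.01 CP10K in members and 29.6 and 24.2 CP10K in other B-lineage cells. The cycling Jchain-high cells, chosen the other way, were also under the other cells, at 14.6 and 16.2 CP10K. The part of the choice in the difference was not tested. Of 10 genes of cell cycle exit 1 was higher and 3 were lower.

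Members varied along the level of *Jchain*. When they were split into 4 equal parts by *Jchain*, in the CD45.2+ library from 100.6 to 245.4 CP10K in the lowest part to 501.4 to 1383 CP10K in the highest, *Slpi* averaged 15.1, 32.2, 72.1 and 125.8 CP10K from the lowest to the highest part. In the CD45.1+ library *Slpi* averaged 13.9, 18, 29.2 and 57.8 CP10K. *Tnfrsf17* followed in the CD45.2+ members at 0.496, 0.951, 1.16 and 1.33 CP10K. Summed MHC class II genes ran the other way, at 172, 126, 107 and 87.6 CP10K in the CD45.2+ and 106, 76.2, 75.9 and 78.1 CP10K in the CD45.1+ library, as did *Prdm1*, at 1.34 CP10K in the lowest and 0.826 CP10K in the highest CD45.2+ part and 1.31 and 0.786 CP10K in the CD45.1+ parts. The summed chaperones differed little, at 219.9, 219.4, 211.6 and 198.2 CP10K in the CD45.2+ and 288.5, 318.9, 292.7 and 285.9 CP10K in the CD45.1+ library. The immunoglobulin share of UMIs moved with the parts, from a median of 27.7% to 47.9% and from 36.8% to 50.1%, so the parts were also compared with immunoglobulin transcripts left out of the total. On that scale *Prdm1* averaged 1.87, 1.94, 1.87 and 1.54 CP10K in the CD45.2+ parts, lower only in the highest, and the summed MHC class II genes 234, 192, 181 and 163 CP10K. In the CD45.1+ parts *Prdm1* averaged 2.12, 1.89, 2.02 and 1.52 CP10K and the MHC class II sum was 166, 129, 137 and 157 CP10K.

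A second division followed antigen presentation. The members were split into 4 equal parts by the summed level of *H2-Aa*, *H2-Ab1*, *H2-Eb1* and *Cd74*, which ranged from 11.3 to 53.5 CP10K in the lowest CD45.2+ part and from 148.7 to 688.8 CP10K in the highest. *Tnfrsf17* averaged 2.05, 0.945, 0.681 and 0.249 CP10K from the lowest to the highest CD45.2+ part and 4.13, 3.03, 1.93 and 0.687 CP10K in the CD45.1+ parts. It was thus highest where presentation genes were lowest, in both libraries. *Prg2* ran the other way in the CD45.1+ members, at 0.252, 0.395, 0.843 and 3.51 CP10K, and less evenly in the CD45.2+ members, at 0.975, 2.16, 1.72 and 2.68 CP10K. *Trp53inp1* averaged 8.79, 7.87, 6.70 and 4.33 CP10K and 9.04, 7.60, 5.42 and 4.36 CP10K. Summed identity genes averaged 29.0, 42.6, 64.3 and 99.6 CP10K in CD45.2+ and 10.8, 13.6, 19.7 and 49.8 CP10K in CD45.1+ parts. Chaperones and translocon genes were lower toward the high parts, at 251.6 and 194.4 CP10K and at 122 and 89.3 CP10K in the lowest and highest CD45.2+ part. The median depth of the parts was 8246, 7346, 9288.5 and 8126 UMIs in the CD45.2+ and 9829, 10260, 9608 and 7678 UMIs in the CD45.1+ library. With immunoglobulin transcripts left out of the total, *Prg2* averaged 1.97, 4.39, 3.16 and 3.97 CP10K in the CD45.2+ parts, highest in the second, and 0.456, 0.836, 1.80 and 5.94 CP10K in the CD45.1+ parts. The parts pool mice that differed in the same genes, since mouse 3 of the wt/wt-labelled mice held the least *H2-Aa* and the most *Tnfrsf17* in both fractions. The members were therefore also split into 2 equal parts by the same sum within each mouse and fraction with at least 20 singly labeled members, a division added after seeing the data. *Tnfrsf17* was lower and *Prg2* and the summed B cell identity genes were higher in the part with more MHC class II in 7 of 7 such sets. In mouse 3 *Tnfrsf17* averaged 2.38 against 0.851 CP10K in CD45.2+ and 4.24 against 2.58 CP10K in CD45.1+ members, whereas in the CD45.1+ members of mouse 1 it differed little, at 1.05 against 1.01 CP10K. *Trp53inp1* was lower in 6 of 7 sets (5 of 7 with immunoglobulin left out), and in the CD45.2+ members of mouse 3 it averaged 8.15 against 8.84 CP10K. These are descriptions of cells, with no test.

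**Figure D3:**
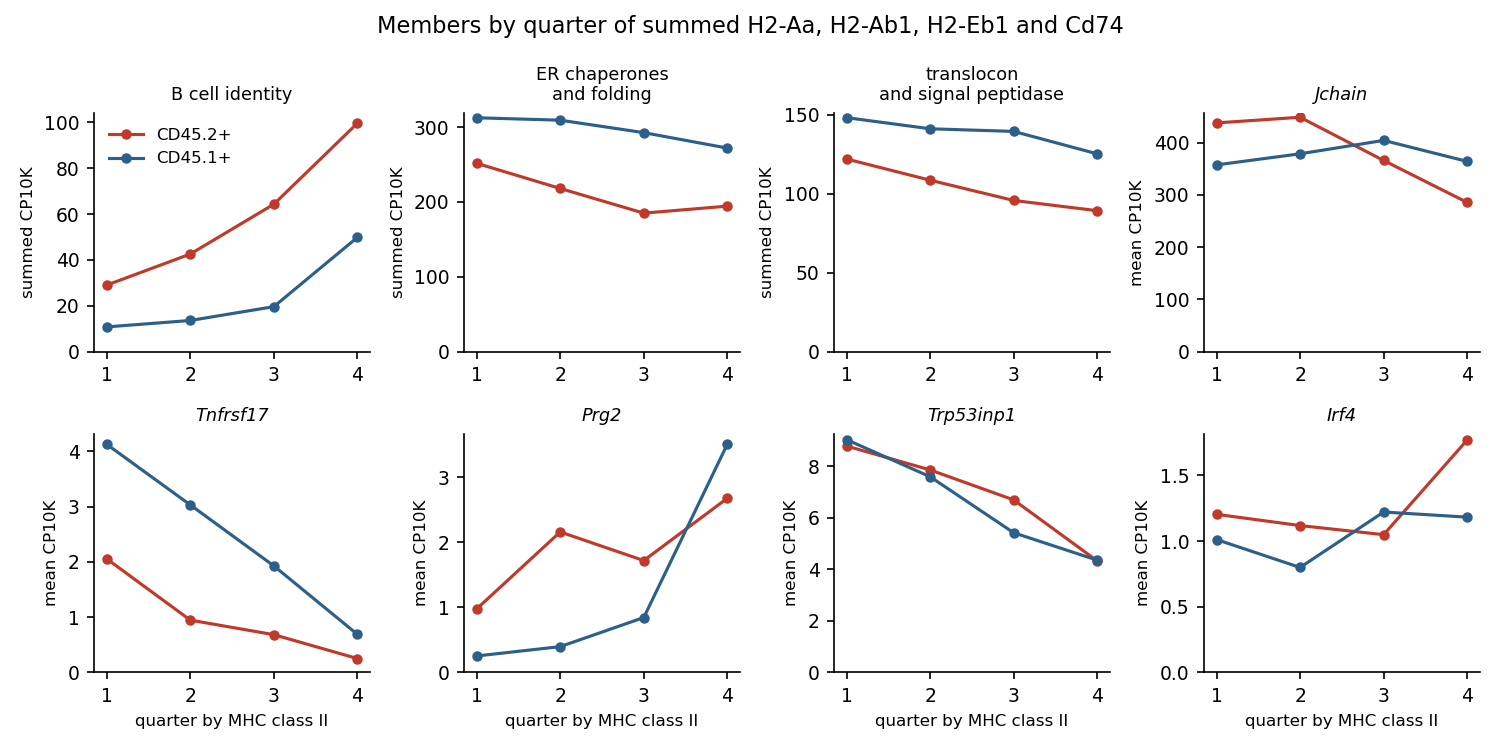
Mean level (CP10K, with summed levels for lists) of 8 genes or lists in 4 equal parts of the members, ordered by the summed level of *H2-Aa*, *H2-Ab1*, *H2-Eb1* and *Cd74*, for the CD45.2+ and CD45.1+ libraries. *Tnfrsf17* is lower in each higher part in both libraries, from 2.05 to 0.249 CP10K and from 4.13 to 0.687 CP10K, while *Prg2* goes from 0.975 and 0.252 CP10K in the lowest part to 2.68 and 3.51 CP10K in the highest.

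The CD45.2+ BCL2.Tg members were compared with the CD45.1+ members of the same 3 wt/wt-labelled mice, which asks how members with and without the transgene differed. The CD45.2+ members held more B cell identity and germinal center transcripts, and the CD45.1+ members held more transcripts of the secretory pathway. UMIs were summed per mouse and fraction over 129, 243 and 137 CD45.2+ and 29, 61 and 115 CD45.1+ singly labeled members, 3879166 and 1832412 UMIs in all, and tested with edgeR's quasi-likelihood test with the mouse as a block. At a Benjamini-Hochberg adjusted p under 0.05, 814 of 6345 genes passed (12.8%), 395 higher (6.23%) and 419 lower (6.60%) in CD45.2+ members. Of these, 774 differed the same way in all 3 mice, as did 2865 of all 6345 genes tested. The test itself favors genes that do so, so this count is no separate evidence. Without mouse 2 or mouse 3 the number called was 319 or 517, and DESeq2 called 223. A library holds all mice of its fraction, so the p-values measure the spread between mice within 1 pair of libraries. In the other B-lineage cells of the same mice 597 of 10855 genes passed (5.50%). The difference of the 2 contrasts, tested as an interaction term, was called for 429 of 9186 genes (4.67%), of which 332 were higher and 97 lower in the members' contrast.

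B cell identity genes were higher in CD45.2+ members. Of the 19 genes 18 rose and 0 fell, with a median log2 difference of 2.32 against 0.03 in the other cells and 0.025 over all genes, and the interaction term was called for 16. *Ms4a1* stood at 3.05, 3.00 and 1.93 CP10K in CD45.2+ and 0.945, 0.639 and 0.364 CP10K in CD45.1+ members of mice 1, 2 and 3. The groups did not overlap, and the log2 difference was 2.05 (SE 0.16, edgeR adjusted p = 7.8e-09, n = 3 mice). *Klf2* stood at 0.669, 0.549 and 0.489 CP10K against 0, 0.019 and 0.009 CP10K (edgeR adjusted p = 5.9e-08). This is 218 against 2 UMIs and a ratio of 51.5 with a 95% interval of 14.1 to 428, which covers counting error only. Its log2 difference was 2.93 when a hashtag had to exceed the next 3-fold and 3.51 with cycling Jchain-high cells kept, both below that interval. Over all alternatives it ranged from 2.93 to 6.29. *Pax5* stood at 0.196, 0.426 and 0.258 CP10K against 0.050, 0 and 0 CP10K, or 124 against 1 UMIs (ratio 58.6, interval 10.3 to 2332). The 2 fractions did not overlap for either gene. *Cd79a* was higher in each mouse, at 35.1, 36.9 and 18.7 CP10K against 32.5, 18.4 and 6.22 CP10K, though its ranges overlapped. *Swap70*, an adaptor of B cell migration, was the member of the list that did not pass (log2 0.16, edgeR adjusted p = 0.66). The level in T cells of the CD45.2+ library was as high as in its members (57.4 and 58.8 CP10K summed over the list) and was 13.5 CP10K in the CD45.1+ library, so that the level in T cells moved with this difference. In T cells with 1 hashtag it was 46.4 and 13.3 CP10K. The part of free RNA or doublets in the difference was not tested.

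Germinal center, homing and presentation genes went the same way in part. Of 8 germinal center genes tested 6 rose, with a median of 2.78, among them *Bcl6*, the regulator of germinal center B cells, with 55 against 1 UMIs (ratio 26, interval 4.47 to 1045). In the other cells 6 of these genes fell in the same contrast, with a median of -0.45, and the interaction term was called higher in the members for 8 of 10. The list summed to 2.23 CP10K in CD45.2+ members and 4.59 CP10K in T cells of that library, and to 0.695 and 0.99 CP10K in the CD45.1+ library. Of 8 homing genes 5 rose, with a median of 1.39, among them *S1pr1* with 1.36. Of 10 MHC class II genes 6 rose, with a median of 0.73. The structural genes did not pass, since *H2-Aa* stood at 11.5, 13.6 and 5.45 CP10K in CD45.2+ and 14.7, 11.7 and 2.65 CP10K in CD45.1+ members (log2 0.17), while *H2-DMb2* and *H2-Ob*, which encode chains of the peptide editors H2-M and H2-O, rose by 1.97 and 1.55.

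The secretory machinery was lower in CD45.2+ members. Of 19 chaperones 13 fell, of 18 translocon genes 11 fell and of 17 glycosylation genes 16 fell, and 0 rose in any of the 3 lists, with medians of -0.47, -0.47 and -0.57. In the other cells the medians were -0.34, -0.24 and -0.19, and the interaction term was called for 0, 1 and 3 genes. The translocon and glycosylation counts depended on mouse 2, without which 5 and 6 genes fell. *Hsp90b1* stood at 36.2, 35.0 and 39.7 CP10K in CD45.2+ and 49.0, 58.2 and 59.7 CP10K in CD45.1+ members. The fractions did not overlap, with a log2 difference of -0.71 (SE 0.075, edgeR adjusted p = 5.6e-07). *Ssr2*, a translocon-associated protein, stood at 3.30, 3.47 and 4.32 CP10K against 7.46, 7.82 and 7.97 CP10K, a log2 difference of -1.20 (SE 0.109, edgeR adjusted p = 7.4e-08). *Rpn2*, a subunit of oligosaccharyltransferase, differed by -0.90, and by -0.80 more than in the other cells (edgeR adjusted p = 0.0013 for the interaction). *Pdia4*, a disulfide isomerase, did not pass (log2 0.08). Of 16 unfolded protein response genes 3 fell, namely *Edem1*, *Manf* and *Atf6*, a membrane-bound sensor. *Xbp1* stood at 18.8, 17.5 and 20.4 CP10K against 23.4, 21.6 and 21.8 CP10K, a log2 difference of -0.37 (SE 0.084, edgeR adjusted p = 0.0045), which did not pass without mouse 2 (edgeR adjusted p = 0.13). Its groups did not overlap, and 5 of 11 fate regulators fell, whereas *Prdm1* (log2 -0.02) and *Irf4* (log2 0.10) did not pass.

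**Figure D4:**
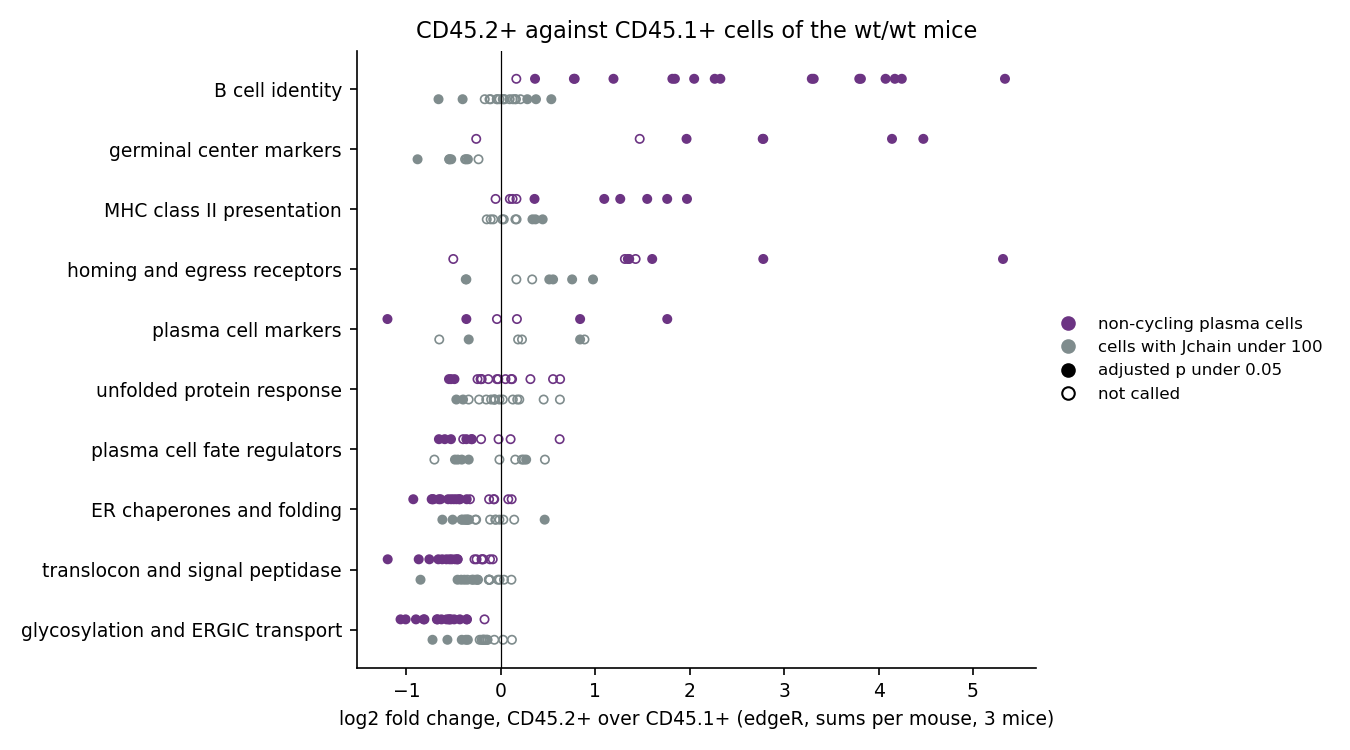
Log2 fold change of CD45.2+ over CD45.1+ cells (edgeR, sums per mouse, 3 wt/wt-labelled mice) for the genes of 10 lists, in members (purple) and in cells with *Jchain* under 100 CP10K (grey). Each dot is 1 gene, filled where the adjusted p was under 0.05. *Id3* and *Rgs13*, which were at 0 in the singly labeled CD45.1+ members of these mice, are not drawn. B cell identity genes lie right of 0 in members and about 0 in the other cells (medians 2.32 and 0.03), and the 3 secretory lists lie left of 0 in both.

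The marker genes of the members did not move together. *Slpi* stood at 74.0, 71.1 and 55.4 CP10K in CD45.2+ and 31.3, 38.9 and 31.8 CP10K in CD45.1+ members, a log2 difference of 0.84 (SE 0.080, edgeR adjusted p = 1.3e-07). The same difference of 0.84 was found in the other cells. *Prg2* stood at 2.13, 3.24 and 2.71 CP10K against 1.69, 0.676 and 0.482 CP10K, and rose by 1.76 (SE 0.228, edgeR adjusted p = 9.1e-06). *Tnfrsf17* stood at 0.432, 0.774 and 1.81 CP10K against 1.19, 1.63 and 3.53 CP10K, a log2 difference of -1.20 (SE 0.137, edgeR adjusted p = 1.8e-06). It was lower in each mouse, although its ranges overlapped between the fractions because mouse 3 was the highest in both. *Jchain*, by which the members of both fractions were chosen, stood at 372, 413 and 402 CP10K against 342, 429 and 353 CP10K and gets no test. *Derl3* did not pass (log2 0.17, edgeR adjusted p = 0.33). The immunoglobulin genes differed by chain, as *Ighm* stood at 902, 801 and 872 CP10K against 638, 529 and 652 CP10K (log2 0.38). *Ighg1* stood at 4.04, 5.39 and 3.75 CP10K against 7.11, 11.6 and 10.8 CP10K (log2 -1.30, SE 0.116, edgeR adjusted p = 5.9e-08), and the fractions did not overlap for either chain.

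*Bcl2*, the mouse gene, stood at 6.10, 5.42 and 5.45 CP10K in CD45.2+ and 5.47, 4.08 and 1.36 CP10K in CD45.1+ members. The ranges overlapped, and the log2 difference was 0.74 (SE 0.208, edgeR adjusted p = 0.019) and 0.16 without mouse 3 (edgeR adjusted p = 0.56). In the other cells it was 2.27, and the 2 contrasts differed by -1.53 (SE 0.239, edgeR adjusted p = 4.0e-06). Without the CD45.1+ members with 3 or more *Bcl2* UMIs 763 genes were called, 383 higher and 380 lower. The log2 difference of *Bcl2* was then 5.86. That rise is fixed by the filter, which takes cells out of the CD45.1+ fraction only and by this gene, so it is no estimate of the difference. Without them 17 of the 18 B cell identity genes tested and 9 of 10 MHC class II genes (6 with them) were called higher, and 13 of 19 chaperones, 11 of 18 translocon and 12 of 17 glycosylation genes were called lower. As a description over cells, the CD45.1+ members with 3 or more *Bcl2* UMIs held more *Slpi* than those with 0, at 41.4 against 26.7 CP10K, and less *Tnfrsf17*, at 1.94 against 2.59 CP10K, but less *Prg2*, at 1.07 against 1.25 CP10K. Among their B cell identity genes *Cd79a* stood at 29.0 against 8.61 CP10K, next to 30.4 CP10K in all CD45.2+ members, whereas *Ms4a1* was at 0.716 against 0.878 CP10K and *Pax5* at 0.033 against 0.028 CP10K. They also held more *Bcl2l11*, which encodes the pro-apoptotic BIM, at 12 against 7.69 CP10K, and more *Jchain*, at 488 against 350 CP10K. These means pool mice that held such cells in unequal shares. Within the wt/wt-labelled mice, *Slpi*, *Cd79a*, *Bcl2l11* and *Jchain* were higher in the members with 3 or more *Bcl2* UMIs in 3 of 3 mice, whereas *Tnfrsf17* stood at 1.43, 1.19 and 3.04 CP10K against 0.805, 2.10 and 3.47 CP10K, higher in mouse 1, and *Prg2* at 0.987, 1.01 and 0.597 CP10K against 1.43, 0.370 and 0.481 CP10K, lower only in mouse 1. Among the other survival genes *Bax*, a pro-apoptotic effector, rose by 0.71 and *Bbc3*, which encodes PUMA, rose, with 50 against 1 UMIs (ratio 23.6, interval 4.05 to 951), while *Bcl2l11* differed by 0.15 and did not pass.

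Some called genes were at 0 in the singly labeled members of one fraction. Among the named genes, 8 were at 0 in the singly labeled CD45.1+ members of the 3 mice. They were at a level at least 6.61-fold higher in CD45.2+ members, counted against a floor of 3 UMIs over the group (0.016 CP10K). Among them were *Samd9l*, an interferon-induced gene (at least 14.3-fold), *Id3*, an inhibitor of E proteins (10.9-fold), *Ccr6*, a chemokine receptor (9.45-fold), *Rgs13*, a regulator of chemokine signaling in the germinal center (7.40-fold), *B3gnt5* (7.09-fold), *Elmsan1* (6.77-fold) and *Il10ra*, the interleukin-10 receptor (6.61-fold). These rest on 42 to 91 UMIs, and each of these genes was at a higher mean in T cells of the CD45.2+ library than in its members. *Ccr6* stood at 0.348 CP10K in T cells against 0.247 CP10K in members, and *Rgs13* at 0.443 against 0.155 CP10K, while both were at 0 in the 52 T cells of the CD45.1+ library. T cells also express *Id3* and *Il10ra* themselves, and the part of transcripts from other cells was not tested. Among the genes named for being lower, *Mt1*, a metallothionein, stood at 0.041, 0.050 and 0.187 CP10K against 0.099, 0.207 and 1.0 CP10K, and *Ctse*, an aspartic protease of the endosome, at 0.154, 0.118 and 0.116 CP10K against 0.249, 0.489 and 0.564 CP10K. *Mt1* overlapped between the fractions and *Ctse* did not.

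CD45.1+ members were next compared by the genotype of the CD45.2+ cells that shared their mouse, which asks whether *Dock8* wt/wt members differed beside *Dock8* cpm/cpm competitors. No gene was called among 1785 tested (0%) by edgeR's quasi-likelihood test over 29, 61 and 115 against 15, 28 and 16 cells, with 111 genes at an unadjusted p under 0.05, and DESeq2 also called 0. Without the members with 3 or more *Bcl2* UMIs edgeR called 0 of 1533, with 110 at an unadjusted p under 0.05. Only 6 of the 19 B cell identity genes had enough UMIs. The lowest p was that of *Ly6c2*, at 0.746, 1.05 and 1.85 CP10K in wt/wt-labelled mice and 0.207, 0.341 and 0.303 CP10K in the cpm/cpm-labelled mice. The groups did not overlap, which was so for 231 of the 1785 genes tested, and the log2 difference of -2.15 did not pass (edgeR adjusted p = 0.457).

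CD45.2+ members were compared by the *Dock8* label as far as their number allowed. The 3 cpm/cpm-labelled mice gave 0, 4 and 3 singly labeled members, and the groups were fitted only under the other margin of the hashtag normalization, over each cell, which gave 10 and 22 cells in 2 of these mice and left out the third with 4. In the same sums *Xist* stood at 0.857 and 2.53 CP10K against 8.18, 8.32 and 8.69 CP10K and *Ddx3y* at 0.612 and 0.754 CP10K against 0.008, 0.050 and 0.031 CP10K, so that donor sex differed with the label, and sex and genotype cannot be told apart. Against 161, 238 and 177 cells of the wt/wt-labelled mice, 4 of 7192 genes were called by edgeR (0.0556%), with 502 at an unadjusted p under 0.05, and DESeq2 called 0. *Prg2* was lower, at 1.35 and 0.915 CP10K against 2.12, 3.15 and 2.21 CP10K (log2 -1.46, edgeR adjusted p = 0.029), and so was *Rpl10a*, a ribosomal protein, at 13.5 and 13.9 CP10K against 18.6, 18.9 and 18.8 CP10K (log2 -0.67, edgeR adjusted p = 0.049). Neither overlapped between groups, which was so for 2451 of the 7192 genes tested. *Ighg1* was called higher with 4.04 and 82.6 CP10K against 4.11, 5.64 and 4.12 CP10K, and *E330020D12Rik* with 0.367 and 4.74 CP10K against 0.272, 0.479 and 0.290 CP10K. Both overlapped between the groups and rested on mouse 3.

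The share of members among kept cells was measured per mouse from singly labeled cells. In the CD45.2+ fraction it was 6.43, 9.32 and 8.19% in the wt/wt-labelled mice (129 of 2007, 243 of 2607 and 137 of 1672 cells) and 0, 9.09 and 2.97% in the cpm/cpm-labelled mice (0 of 57, 4 of 44 and 3 of 101 cells). The groups overlapped, and for the 0 of 57 cells the exact 95% binomial interval, which covers counting error only, reached 6.27%. The means were 7.98% ± 1.46 and 4.02% ± 4.64 (SD, n = 3 mice each), a difference of -3.96 percentage points (p = 0.3, two-sided exact permutation test, in which 3 against 3 mice cannot go below 0.1). When a hashtag had to exceed the next 3-fold, the CD45.2+ groups did not overlap (p = 0.1, exact permutation test). The shares were then 6.28, 8.72 and 8.86% against 0.437, 4.38 and 5.82% (of 229, 160 and 481 cpm/cpm-labelled cells). The groups also did not overlap after thinning to 2000 UMIs or without cpm/cpm-labelled mouse 2. They overlapped under the other hashtag margin, *Jchain* cutoffs of 50 and 200 and the stricter cell filters. In the CD45.1+ fraction the share was 7.34, 11.8 and 12.1% in the wt/wt-labelled mice and 3.02, 8.26 and 3.15% in the cpm/cpm-labelled mice, with a difference of -5.60 percentage points (p = 0.2, exact permutation test). Of these 3 mice 2 lay below all wt/wt-labelled mice. Without the CD45.1+ cells with 3 or more *Bcl2* UMIs, a setting added after seeing the data, the shares were 4.04, 6.32 and 10.9% and 3.06, 7.46 and 2.97%, and the difference was -2.58 percentage points (p = 0.5, exact permutation test). Within the wt/wt-labelled mice the CD45.2+ share was below the CD45.1+ share in 3 of 3 mice, by -2.43 percentage points on average (p = 0.25, the smallest an exact permutation of 3 pairs allows). Without the cells high in *Bcl2* it was above the CD45.1+ share in mice 1 and 2 and below it in mouse 3, by 0.905 percentage points on average (p = 0.75, exact permutation test). That filter was applied to CD45.1+ cells only. In the wt/wt-labelled mice it took out 14 of 29, 31 of 61 and 16 of 115 of their members. Of their other B-lineage cells it took out 5 of 326, 1 of 396 and 6 of 667. A lower CD45.1+ share follows from this, so the turned direction decides nothing beyond its dependence on those cells. The difference between fractions did not depend detectably on the label, at 1.64 percentage points (p = 0.3, exact permutation test) with those cells and -1.38 without (p = 0.5).

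**Figure D5:**
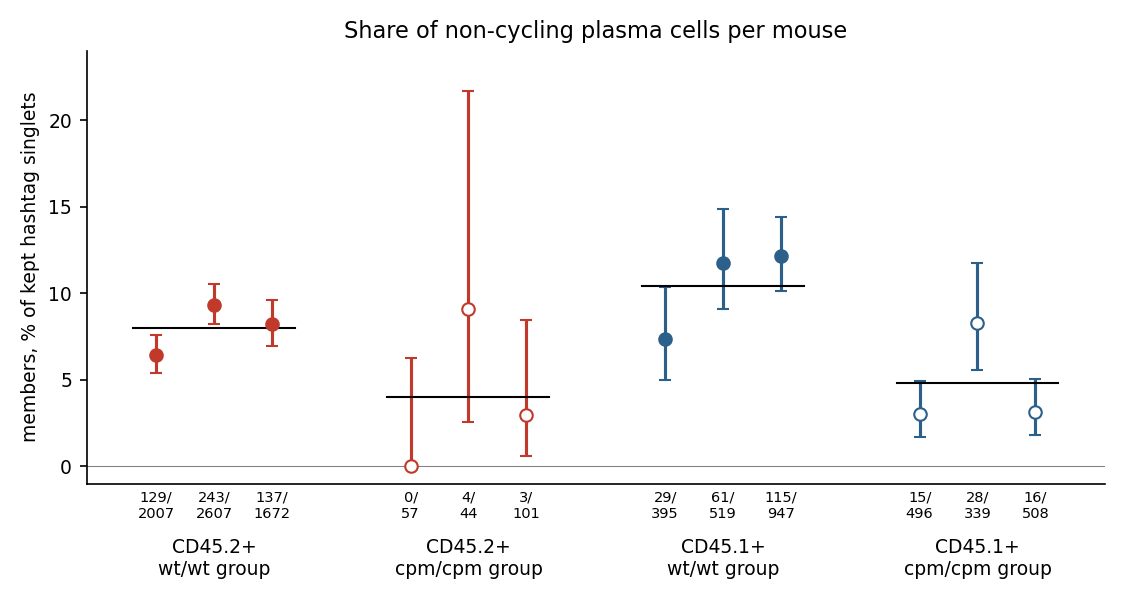
Members as a percentage of kept singly labeled cells in each mouse, by fraction and hashtag label. Points are mice, bars are exact 95% binomial confidence intervals, which cover counting error only, black lines are group means and the numbers are members of kept cells. The intervals of the CD45.2+ cells labelled *Dock8* cpm/cpm, from 44 to 101 cells, are the widest.

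Among Jchain-high cells, the share without Mki67 or Top2a UMIs was 39.6% ± 4.13 in CD45.2+ cells labelled *Dock8* wt/wt (SD, n = 3 mice) and 44.2% ± 4.67 in their CD45.1+ counterparts. In the cpm/cpm-labelled mice it was 43.3% ± 40.4 over 1, 5 and 6 CD45.2+ Jchain-high cells and 38.6% ± 9.91 in CD45.1+ cells. The CD45.2+ groups did not differ beyond the spread between mice (3.74 percentage points, p = 0.8, exact permutation test). This share depends on depth, since thinning each cell to 2000 UMIs raised it to 75.9, 75.7 and 66.0% in CD45.2+ cells labelled *Dock8* wt/wt and to 70.1, 75.8 and 70.5% in their CD45.1+ counterparts. That thinning left out 131 and 61 wt/wt-labelled and 4 and 59 cpm/cpm-labelled cells of the CD45.2+ and CD45.1+ fraction.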

How the data were processed

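The authors deposited UMI counts of 3′ single-cell libraries for an mRNA and a hashtag library of each sorted fraction, per the labels made with Cell Ranger 5.0.1 and Seurat 4.0 on mm10, and a table that ties hashtags to mice. Hashtag counts were normalized by the centered log-ratio over each hashtag and demultiplexed by HTODemux (Seurat 5.3.0, quantile 0.99). The members and gene lists were chosen with earlier results of these data known. Raw UMI counts were summed per mouse and fraction over profiles of at least 10 cells. Sums were tested with edgeR 4.0.16 (filterByExpr, TMM, quasi-likelihood, Benjamini-Hochberg over all genes, sex-linked genes apart), in 3 comparisons across genes, and 5 share tests used exact permutation. No depth correction other than library size was made, and values per mouse rest on 201046 to 1783634 UMIs in the transgene comparison. The mouse was a block there because both fractions of a pair came from the same animal, and their deviations correlated at 0.110, 0.0650 and 0.363 in mice 1 to 3 over 3942 genes, although CD45.2+ mouse 2 correlated more with CD45.1+ mouse 1 (0.171). In simulated data of the transgene comparison (6370 genes), 59% of 2-fold and 86% of 4-fold changes were recovered. Named genes were those of the 24 lists, the 30 with the largest ratio in the profile and, per comparison, up to 10 per direction with the largest change among those called and moved the same way in every mouse. Alternatives were another hashtag rule, *Jchain* cutoffs of 50 and 200, stricter cell filters, thinning, DESeq2 1.42.0, no gene filter, immunoglobulin genes left out, and each mouse left out. Sequences are from RefSeq. A few genes are not reported here.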

Additional observations from a re-analysis of the deposited data

Results flagged for a closer look

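The CD45.2+ against CD45.1+ difference in wt/wt-labelled mice was not the same in members and in other B-lineage cells. The difference of the 2 contrasts, tested as an interaction term with edgeR's quasi-likelihood test, was called for 429 genes. When each class of cells was tested alone, 184 genes were called in the same direction in both and 20 in opposite directions.

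B cell identity genes accounted for 16 of the genes called higher in the members' contrast, and germinal center markers for 8. *Klf2* differed between the contrasts by a fitted log2 value of 5.19 (edgeR adjusted p = 5.6e-11), which rests on 2 UMIs in the singly labeled CD45.1+ members. In T cells of the CD45.2+ library the B cell identity list summed to 57.4 CP10K against 58.8 CP10K in members and the germinal center list to 4.59 against 2.23 CP10K, and the part of transcripts from other cells in the difference was not tested.

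*Bcl2* differed between the contrasts by -1.53, the excess of CD45.2+ over CD45.1+ cells being smaller among members than among other cells. Of the CD45.1+ members 18% held 3 or more *Bcl2* UMIs, against 0.690% of other CD45.1+ cells. These cells were defined by *Bcl2* itself, and their part in the difference was not tested. *Ighg1* differed by -1.38 (edgeR adjusted p = 1.5e-07), lower in the CD45.2+ members of 3 of 3 mice.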

How the results depend on the processing

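Of the counts and shares that answer the comparisons, 77 values under the alternatives stayed within 1.5-fold (counts) or kept their sign (shares), 17 counts moved further and 7 shares changed sign. Of the values of single genes under the alternatives, 333 kept direction and side of the threshold, 39 no longer passed, 1 newly passed and 4 changed sign, and among counts of list genes 56 stayed within 1.5-fold and 4 did not. The transgene comparison, with 814 genes, gave 1381 when a hashtag had to exceed the next 3-fold, 1939 with the cycling Jchain-high cells kept and 223 with DESeq2, and 319 to 904 when 1 mouse was left out. Under DESeq2 7 translocon and 7 glycosylation genes fell. Without the replicate block by mouse 707 genes were called, 388 higher and 319 lower, and *Xbp1* and *Bcl2* no longer passed (edgeR adjusted p = 0.067 and 0.19). *Slpi* and *Tnfrsf17* passed under all 15 alternatives, and *Prg2* under all but DESeq2 (adjusted p = 0.18), with a log2 difference of 0.71 to 2.26. *Id3* ranged from 2.45 to 7.16. *Bcl2* ranged from 0.16 to 1.40, apart from the 5.86 that followed from taking out CD45.1+ cells by *Bcl2* itself. *Derl3* changed sign under the 3-fold hashtag rule (-0.022), and *Jchain*, which gets no test, went from -0.04 to -0.21 under that rule and changed sign with a cutoff of 200 (0.029), when 1 mouse was left out (-0.094 to 0.071) and without the CD45.1+ members high in *Bcl2* (0.17). The comparison by partner genotype, with 0 genes, gave 2 under the 3-fold rule, 14 with cycling cells kept, 18 with no filter on low counts and 0 to 2 when 1 mouse was left out. The *Dock8* comparison, with 4 genes, gave 0 with DESeq2, 57 with no filter, 8 without immunoglobulin genes, 2 in a fit of all profiles and 4 to 11 when 1 mouse was left out, where a lone mouse was assumed to vary like the others. These settings were chosen after seeing the data, as was leaving out the CD45.1+ members high in *Bcl2*. The *Dock8* comparison under the first hashtag rule, and the comparison by partner genotype under the other margin, could not be fitted.

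Some differences of shares changed sign. The difference between fractions by label was -0.174 percentage points under the 3-fold rule, -1.21 after thinning to 2000 UMIs and -1.38 without the CD45.1+ cells high in *Bcl2*, where the difference between fractions in the wt/wt-labelled mice was 0.905. The share of Jchain-high cells without Mki67 or Top2a UMIs differed by -3.54 under the 3-fold rule, by -23.6 after thinning and by -14.6 to 25.4 when 1 mouse was left out. The cause of these changes was not tested. The limits are the number of cells and UMIs: 7 singly labeled CD45.2+ members from the cpm/cpm-labelled mice, 59 CD45.1+ members from the same mice, and 1 droplet library per fraction.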

Other observations

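*Apoe*, which encodes an apolipoprotein, was uneven among the members and was picked out after its values were seen. It averaged 21.2 CP10K in CD45.2+ members and 4.01 CP10K in other CD45.2+ cells, although a similar share of cells carried a UMI (55.5% and 57.9%), and 2.41 CP10K in the T cells of that library (47.4%). In the CD45.1+ library it averaged 3.56 CP10K in members and 4.41 CP10K in other cells. By wt/wt-labelled mouse it stood at 17.8, 34.4 and 4.21 CP10K in CD45.2+ members and 1.94, 5.45 and 0.364 CP10K in CD45.1+ members, so mouse 2 was the highest and mouse 3 the lowest in both fractions. In CD45.1+ members of the cpm/cpm-labelled mice it stood at 14.6, 0.341 and 25.9 CP10K, where 2, 1 and 1 cells held 3 or more *Apoe* UMIs. Along the summed level of MHC class II genes it averaged 4.51, 12.2, 16.6 and 51.7 CP10K in the 4 parts of CD45.2+ members and 0.057, 0.067, 0.162 and 13.9 CP10K in those of CD45.1+ members. Within each mouse and fraction with at least 20 singly labeled members, the members with more MHC class II held more *Apoe* in 7 of 7 sets, a division added after seeing the data. In mouse 3, for example, it averaged 11.4 against 0.871 CP10K in CD45.2+ and 0.976 against 0.093 CP10K in CD45.1+ members. In the CD45.1+ library few cells carried it, as 22 of 500 members held 3 or more *Apoe* UMIs.

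Of the 7 genes tested in a list of secretory metabolism, 2 were higher and 2 lower in CD45.2+ than CD45.1+ members of the wt/wt-labelled mice (edgeR's quasi-likelihood test), next to 6.23% higher and 6.60% lower of all genes tested. *Slc3a2* and *Slc7a5*, the chains of a transporter of large neutral amino acids, rose by 1.25 and 2.42 on the log2 scale, whereas *Slc1a5*, another amino acid transporter, did not pass (log2 0.29, edgeR adjusted p = 0.35). *Ly6a*, the gene of Sca-1, *Cd44*, an adhesion receptor, and *Ccnd2*, cyclin D2, fell by 0.49, 0.82 and 0.84 on that scale.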
